A study of Mus musculus with 12 samples.

Results

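The genes described here are 10 macrophage genes, taken by name from the 55679 genes of the deposited gene table. Marco, Chil3, Siglecf and Ear2 (4 genes) are typical of alveolar macrophages, the macrophages of the lung's air spaces. Lyve1, Timd4, Folr2 and Cd163 (4 genes) are typical of resident macrophages of the heart and other solid tissues. Mrc1 and Csf1r (2 genes) are used by both kinds. All 10 names were found in the table.

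RNA was sequenced from whole lung and whole heart of 6 male mice with a 129S6/SvEvTac background, aged 9 to 13 weeks, for which no treatment was named. In the Adam19 knockout (KO) mice, exons 6 and 7 of Adam19, a membrane-bound protease, were replaced on both alleles by a tdTomato reporter in every cell of the body. The wild-type (WT) mice carried the intact gene. Each of the 4 groups (lung WT, lung KO, heart WT and heart KO) held 3 libraries, and the lung and heart of a mouse share its number below (WT 1 to 3 and KO 1 to 3). The WT and KO mice came under different identifier prefixes, so prefix and genotype cannot be told apart.

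Alveolar macrophages settle in the air spaces around birth, depend on the growth factor GM-CSF, take up surfactant and inhaled particles, and carry scavenger receptors and the lectin Siglec-F. The resident macrophages of the heart lie between muscle cells and along vessels, depend on signalling through the CSF1 receptor, clear dying cells and cell debris, and carry LYVE1, TIM-4 and folate receptor beta. Because the libraries were made from whole organs, fewer cells of a type and less RNA per cell cannot be told apart.

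Values are the authors' deposited log2 gene values, on which a difference of 1 is a doubling of scaled abundance and 0 means that nothing was counted. Summed estimated counts were 17674788 to 28043361 in the lung libraries and 18392292 to 35862932 in the heart libraries. Adam19 itself stood at 9.12 to 9.41 in WT lungs and 3.21 to 4.44 in KO lungs, and at 9.17 to 10.27 in WT hearts and 6.01 to 6.67 in KO hearts, so the genotype labels held in all 12 libraries. The tissue labels held as well. The summed level of 8 lung epithelium genes was 18.9 to 19.2 in lungs and 12.5 to 13.2 in hearts, and that of 8 heart muscle genes was 13.6 to 14.9 in lungs and 20.8 to 21.1 in hearts. The heart sum of the lung epithelium genes was mostly Hopx, which read 12.52 to 12.95 in hearts and 12.61 to 13.56 in lungs.

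Both Ear2 and Chil3 have close copies in the mouse genome, so their reads can be split between genes during counting, and the places where the copies differ decide which gene a read counts for. Ear2 and Ear1 transcripts were 96.4% identical over 717 bases, and Chil3 and Chil4 transcripts 94.3% identical over 1540 bases. The stretches of 60 bases shown here lie in coding exons of the GRCm39 build: Ear2 exon 2 (chr14:44340439-44340498, plus strand), Ear1 exon 2 (chr14:44056712-44056771, minus strand), Chil3 exon 6 (chr3:106063030-106063089, minus strand) and Chil4 exon 6 (chr3:106113357-106113416, minus strand). Capitals mark the bases that differ between the members of a pair, 5 in the Ear pair and 10 in the Chil pair.
Ear2: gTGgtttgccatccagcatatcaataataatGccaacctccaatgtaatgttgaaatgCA
Ear1: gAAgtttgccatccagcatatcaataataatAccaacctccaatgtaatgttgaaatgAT
Chil3: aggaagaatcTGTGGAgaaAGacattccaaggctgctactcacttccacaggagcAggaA
Chil4: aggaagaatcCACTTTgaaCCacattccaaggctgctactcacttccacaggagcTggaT

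The copies took very different shares of these signals. Chil4 had values of 1.07 to 2.28 in the lungs and 0 in every heart, and Chil3 held at least 99.97% of the sum of Chil3 and its copies in every library. Ear1 had values of 8.92 to 9.29 in the lungs, and Ear2 held 74.6% to 79.4% of the summed Ear signal there. Other Ear copies (Ear6, Ear10, Ear-ps2 and Ear-ps9) reached at most 1.70. The Ear2 value is therefore uncertain to the extent that reads of Ear1 and Ear2 were exchanged, and the lung-minus-heart difference was 7.72 in WT and 8.21 in KO for the sum of Ear2 and its copies, against 7.36 and 7.93 for Ear2 alone.

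PU.1 is the master transcription factor of macrophages, and its core letters were searched in the 300 bases around the start sites of the members (250 before and 50 after, RefSeq windows on GRCm38.p6). Windows were found for 8 of the 10 members. The letters AGGAAGT, on either strand, were present for Chil3 at position -60 from the start, for Mrc1 at -211, and for Folr2 at -137 and -82 in 1 of its 2 windows, compared with 9.35% of 32851 mouse windows of this length. The windows are chr3:106167515-106167814 (Chil3, minus strand), chr2:14229164-14229463 (Mrc1, plus strand) and chr7:101857141-101857440 (Folr2, minus strand), printed here because they hold 1 gene of each kind, with the matched letters in capitals.
Chil3: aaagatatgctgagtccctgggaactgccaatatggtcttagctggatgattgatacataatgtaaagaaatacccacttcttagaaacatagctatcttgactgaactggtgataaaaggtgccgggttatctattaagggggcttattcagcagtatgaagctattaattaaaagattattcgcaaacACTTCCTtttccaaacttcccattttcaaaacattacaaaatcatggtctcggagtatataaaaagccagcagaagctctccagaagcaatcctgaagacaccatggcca
Mrc1: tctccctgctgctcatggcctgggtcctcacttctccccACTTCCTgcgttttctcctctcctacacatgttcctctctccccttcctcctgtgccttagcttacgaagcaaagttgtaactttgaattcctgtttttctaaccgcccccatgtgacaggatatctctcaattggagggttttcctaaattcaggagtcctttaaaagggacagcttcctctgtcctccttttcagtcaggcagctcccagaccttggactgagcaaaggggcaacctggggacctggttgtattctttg
Folr2: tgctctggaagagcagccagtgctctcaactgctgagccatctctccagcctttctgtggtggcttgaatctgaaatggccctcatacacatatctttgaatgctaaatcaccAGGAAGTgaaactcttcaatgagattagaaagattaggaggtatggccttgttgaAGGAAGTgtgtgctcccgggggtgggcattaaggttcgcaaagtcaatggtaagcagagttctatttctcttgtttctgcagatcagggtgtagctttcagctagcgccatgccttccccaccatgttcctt

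The other letters searched on both strands were those of MAF (TGCTGAC, in 4.67% of windows), AP-1 (TGAGTCA, 5.20%), C/EBP (TTGCNNAA, 10.8%) and a TATA box (TATAAA, 13.6%). MAF letters were present for Timd4 at -45, AP-1 letters for the other Folr2 window at -74, C/EBP letters for Ear2 at -90 and TATA letters for Chil3 at -3. No match overlapped another. The windows of Marco, Siglecf and Cd163 held none of the 5 strings. A match describes letters and says nothing about binding in these organs.

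The first comparison set lung against heart within each genotype. All 4 alveolar genes were far higher in lung, as was Lyve1 from the resident list, while Folr2 and Cd163 were higher in heart and Timd4 was higher in heart at a low level. Mrc1 and Csf1r were higher in lung by a much smaller margin. Lung and heart values did not overlap for any of the 10 genes in either genotype.

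**Figure D1:**
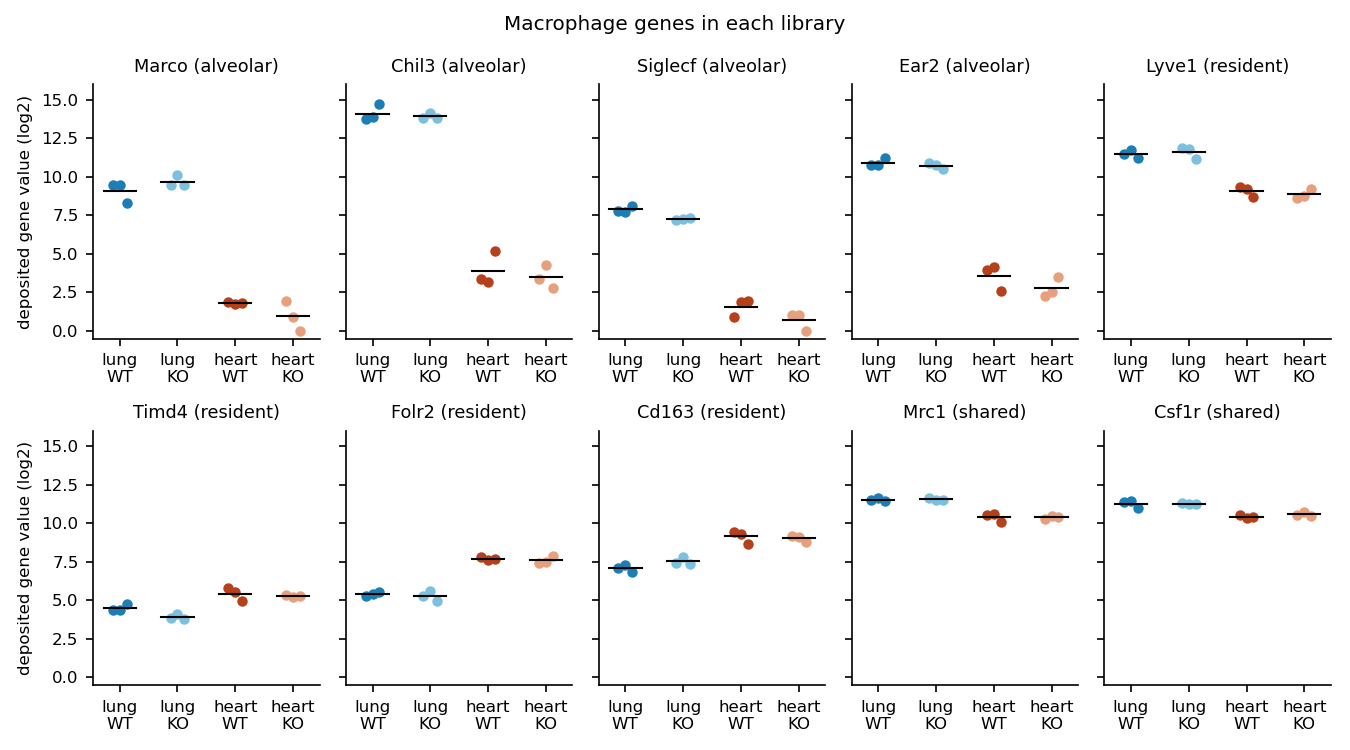
Deposited log2 gene value (y axis) of each of the 10 genes in the 12 libraries, by tissue and genotype on the x axis. Points are single libraries and lines are means of 3. The 4 alveolar genes sit between 7.21 and 14.71 in lungs and between 0 and 5.18 in hearts.

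Chil3 (chr3:106054870-106074880, minus strand) encodes Ym1, a secreted chitinase-like protein of alveolar macrophages. In WT lungs 1, 2 and 3 it read 13.74, 13.88 and 14.71, and in KO lungs 13.83, 14.13 and 13.81. In the hearts it read 3.34, 3.19 and 5.18 (WT) and 3.39, 4.27 and 2.75 (KO). Every lung stood more than 8 log2 units above every heart, and WT 3 was the highest mouse in both organs.

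Ear2 (chr14:44311771-44340996, plus strand) encodes a ribonuclease of the eosinophil-associated family. It read 10.75, 10.77 and 11.23 in WT lungs and 10.89, 10.76 and 10.49 in KO lungs. Its heart values were 3.96, 4.14 and 2.58 (WT) and 2.28, 2.55 and 3.52 (KO). The genotypes overlapped in both organs.

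Marco (chr1:120402267-120432753, minus strand) encodes a class A scavenger receptor that binds bacteria and particles. It read 9.46, 9.46 and 8.28 in WT lungs and 9.49, 10.13 and 9.47 in KO lungs. Heart values were 1.86, 1.72 and 1.82 (WT) and 1.91, 0.90 and 0 (KO), which amounted to 5.59 estimated counts over the 3 WT hearts and 3.88 over the 3 KO hearts. WT lung 3 stood apart from the other lungs, with the lowest Marco and the highest Chil3 value: Chil3 minus Marco, a log2 distance with no correction for length that can be read only between libraries, was 6.44 there and 4.0 to 4.42 in the other 5 lungs. Beside this, the small RNA Rn7s1 took 2.10% of the counts of that library, against 34.0% and 29.9% in the other WT lungs and 3.22% to 20.3% in the KO lungs, and its part in the Marco value was not tested.

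Siglecf (chr7:43000765-43008955, plus strand) encodes Siglec-F, a sialic acid-binding receptor of alveolar macrophages and eosinophils. It read 7.80, 7.74 and 8.11 in WT lungs and 7.21, 7.29 and 7.30 in KO lungs. In the hearts it read 0.88, 1.88 and 1.95 (WT) and 1.04, 1.02 and 0 (KO), or 4.10 and 2.22 estimated counts over 3 hearts each. All WT lungs were above all KO lungs. Of 6 genes on an eosinophil list, not all of them particular to these cells, Epx, the eosinophil peroxidase, was at 0 in all 12 libraries. Prg2 reached at most 3.08. The eotaxin receptor Ccr3 read 4.84 to 5.77 in WT lungs and 5.48 to 6.20 in KO lungs, and Alox15, a lipoxygenase that macrophages also use, read 5.47 to 5.99 and 6.07 to 6.52. Siglece (4.46 to 6.10) and the IL-5 receptor gene Il5ra (3.215 to 4.50) were also present in all lungs. The part of eosinophils in the Siglecf values was not tested.

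Fitted differences on the log2 scale (lung minus heart, limma on all 12 libraries) were 10.21 (SE 0.491, adjusted p = 2.39e-09) in WT and 10.45 in KO for Chil3. They were 7.36 (SE 0.403, adjusted p = 7.17e-09) and 7.93 for Ear2, 7.27 (SE 0.461, adjusted p = 2.72e-08) and 8.76 for Marco, and 6.32 (SE 0.390, adjusted p = 2.16e-08) and 6.58 for Siglecf. In KO the adjusted p-values of these 4 genes were 2.06e-09 to 1.59e-08. A gene was called when its adjusted p was under 0.05, its fold change at least 1.5 and its higher group mean at least 6. All 4 alveolar genes were called higher in lung in both genotypes, where 29.3% (WT) and 28.7% (KO) of the 17666 genes tested were. Marco, Chil3 and Siglecf reached a scaled estimated count of 10 in at least 3 libraries, the filter for testing, through their lung values alone. For them the p-values and calls are therefore not read as tests.

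Because heart counts of Marco and Siglecf were so few, the lung to heart ratio of scaled counts was also computed with a 95% interval that covers counting error only. For Marco it was 213 (91.1 to 542) in WT and 735 (278 to 2620) in KO, and for Siglecf 131 (52.4 to 496) in WT and 220 (67.3 to 2023) in KO. The intervals of the genotypes overlap for both genes. For Ear2 the ratio was 160 in WT and 269 in KO, and for Chil3 1255 and 1441.

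Lung epithelium genes were also present in the hearts. The highest of them there was Hopx (12.52 to 12.95, against 12.61 to 13.56 in lungs), which is 1 of the 8 genes counted below. Sftpc, the surfactant protein of alveolar epithelium, named after its values were seen, read 5.51, 4.78 and 7.71 in WT hearts and 6.90, 7.53 and 4.80 in KO hearts, against 16.3 to 17.3 in lungs. Chil3 minus Sftpc was -3.51 to -1.59 log2 units in the hearts and -3.28 to -2.19 in the lungs. This distance was not computed for the other genes of the list. Scgb1a1, for instance, ranged more widely in the hearts, from 4.54 to 10.23, against 17.3 to 18.4 in lungs. Among WT hearts, WT 3 had the most Chil3 and was highest for 7 of the 8 lung epithelium genes. Among KO hearts, KO 2 had the most Chil3 and was highest for 2 of the 8 (Sftpc and Ager), while KO 1, with a Chil3 value of 3.39 against 4.27 in KO 2, was highest for the other 6. Ear2 minus Sftpc was -6.27 to -5.56 in lungs and -5.13 to -0.64 in hearts, where it was nearest 0 in WT 1, WT 2 and KO 3, the hearts with the least Sftpc. The part of lung material in the heart values was not tested.

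Lyve1 (chr7:110448585-110462460, minus strand) encodes a hyaluronan receptor of lymphatic vessels and of resident macrophages. It read 11.48, 11.72 and 11.26 in WT lungs and 11.89, 11.84 and 11.13 in KO lungs. In the 6 hearts it read 9.37, 9.24 and 8.71 (WT) and 8.66, 8.74 and 9.20 (KO). Unlike the other 3 resident genes it was higher in lung, by 2.38 (SE 0.239, adjusted p = 1.85e-06, limma) in WT and 2.75 in KO.

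Lymphatic endothelial genes, which mark another cell type that carries Lyve1, together stood at 11.8 to 12.6 in lungs and 12 to 12.5 in hearts. The heart sums were mostly Prox1, a transcription factor of lymphatic vessels that heart muscle also uses, which read 11.04 to 11.81 in hearts and 5.99 to 6.46 in lungs. Of these 7 genes, 4 (Pdpn, Flt4, Ccl21a and Mmrn1) were called higher in lung in each genotype and 1 (Prox1) higher in heart, and in WT the 4 became 2 under TMM and 1 under the median of ratios, the scalings described with Csf1r. These genes were named after their values were seen. Pdpn, which alveolar epithelium also uses, was higher in lung by 4.07 in WT, and Flt4, Ccl21a and Mmrn1 differed by 0.72 to 0.76 in WT and 0.98 to 1.08 in KO, in the same direction as Lyve1. Reln, which was not called, averaged 8.57 in WT lungs and 8.63 in WT hearts, and 9.04 and 8.52 in KO. Stab2, also not called, averaged 4.79 and 4.10 in WT, and 5.92 and 4.86 in KO. How much of the Lyve1 signal came from lymphatic vessels was not tested.

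Folr2 (chr7:101489195-101506401, minus strand) encodes folate receptor beta, a surface protein of resident macrophages. It read 5.29, 5.38 and 5.52 in WT lungs and 5.27, 5.59 and 4.97 in KO lungs. Its heart values were 7.80, 7.62 and 7.68 (WT) and 7.43, 7.48 and 7.87 (KO). The difference was -2.30 (SE 0.223, adjusted p = 1.33e-06, limma) in WT and -2.32 in KO, which is 4.94-fold and 4.99-fold higher in heart.

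Cd163 (chr6:124281606-124307560, plus strand) encodes the scavenger receptor for haemoglobin bound to haptoglobin. It read 7.12, 7.32 and 6.85 in WT lungs and 7.43, 7.84 and 7.33 in KO lungs. Heart values were 9.46, 9.33 and 8.69 (WT) and 9.17, 9.10 and 8.80 (KO). The difference was -2.06 (SE 0.227, adjusted p = 4.35e-06, limma) in WT and -1.48 (adjusted p = 8.04e-05) in KO, or 4.17-fold and 2.80-fold higher in heart. Its reads were spread over 3 main transcripts, with 37.4% to 79.2% of the gene on the main coding form and 11.5% to 33.8% on a retained-intron form.

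Timd4 (chr11:46701620-46735177, plus strand) encodes TIM-4, a receptor for phosphatidylserine on dying cells. It read 4.4, 4.37 and 4.74 in WT lungs and 3.87, 4.13 and 3.81 in KO lungs. In the 6 hearts it read 5.79, 5.55 and 4.93 (WT) and 5.32, 5.19 and 5.31 (KO). The authors' table marked Timd4 and Folr2 as not detected and the other 8 genes as detected. The difference was -0.92 (SE 0.299, adjusted p = 0.0160, limma) in WT and -1.33 (adjusted p = 0.00160) in KO. Neither was called, since the higher group mean was 5.42 in WT and 5.27 in KO. In WT the adjusted p was 0.0726 without heart WT 1 and 0.428 with no scaling between libraries, and in KO it was 0.0555 with no scaling.

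Folr2 and Cd163 were thus the 2 members called higher in heart in each genotype, where 20.1% (WT) and 20.9% (KO) of all genes were. Timd4 passed the same p and fold thresholds when no minimum group mean was asked, as did 23.7% (WT) and 24.8% (KO) of all genes in that direction.

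**Figure D2:**
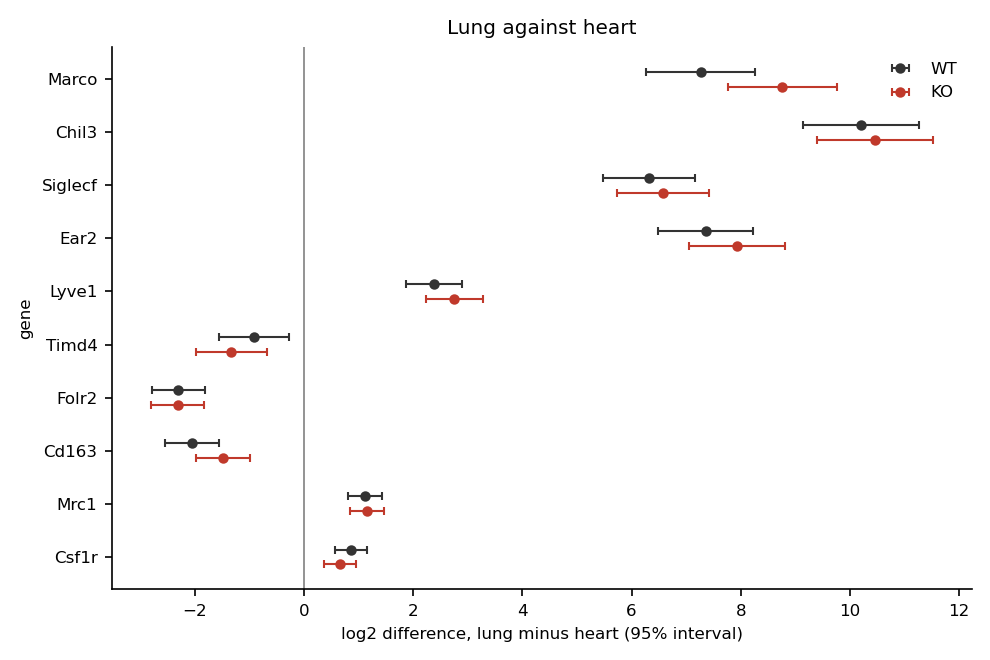
Log2 difference between lung and heart (x axis, lung minus heart) of the 10 genes, for WT (black) and KO (red), with 95% intervals from limma. The alveolar genes lie between 6.32 and 10.45, Lyve1 at 2.38 and 2.75, and Timd4, Folr2 and Cd163 below 0.

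Mrc1 (chr2:14234151-14336926, plus strand) encodes the mannose receptor CD206, carried by both alveolar and resident macrophages. It read 11.51, 11.66 and 11.43 in WT lungs and 11.66, 11.51 and 11.49 in KO lungs. The hearts gave 10.57, 10.61 and 10.10 (WT) and 10.31, 10.49 and 10.40 (KO). The difference was 1.11 (SE 0.144, adjusted p = 1.85e-05, limma) in WT and 1.15 in KO.

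Csf1r (chr18:61229714-61266535, plus strand) encodes the receptor for CSF1 and IL-34, on which most macrophages depend. It read 11.37, 11.48 and 11.02 in WT lungs and 11.29, 11.24 and 11.25 in KO lungs. The hearts gave 10.52, 10.34 and 10.41 (WT) and 10.54, 10.76 and 10.50 (KO). The difference was 0.86 (SE 0.135, adjusted p = 9.25e-05, limma) in WT and 0.66 (adjusted p = 0.000790) in KO. The KO call was lost under other scalings: the difference was 0.42 under TMM (trimmed mean of M values) and under limma-voom, and 0.48 under the median of ratios, all less than 1.5-fold, and 0.76 with adjusted p = 0.0769 with no scaling.

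The scale matters here because the median of all genes was itself 0.32 higher in lung in WT and 0.29 in KO. TMM moved that median by -0.17 in WT and -0.24 in KO, the median of ratios by -0.21 and -0.18, and leaving scaling out by 0.41 and 0.10. The direction of each of the 10 members stayed as described under all of these.

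Levels of different genes were ranked per kilobase of transcript, as scaled estimated counts per kb. In WT lungs the order was Chil3 (12058 ± 4707, SD, n = 3), Ear2 (2705 ± 540), Lyve1 (762 ± 111), Mrc1 (548 ± 39.9), Csf1r (431 ± 66.4), Marco (287 ± 113), Siglecf (106 ± 10.9), Folr2 (39.7 ± 3.75), Cd163 (35.3 ± 7.07) and Timd4 (9.91 ± 1.63). Folr2 and Cd163 overlapped between libraries, and the other neighbours did not, although the highest Marco library (354) lay just under the lowest Csf1r library (356). In KO lungs Marco (435 ± 120) overlapped Csf1r (421 ± 10.6).

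In WT hearts the order per kb was Mrc1 (259 ± 47.6), Csf1r (238 ± 14.4), Folr2 (199 ± 14.6), Lyve1 (153 ± 36.4), Cd163 (150 ± 38.0), Timd4 (19.4 ± 5.87), Ear2 (16 ± 8.84), Chil3 (11.1 ± 9.91), Marco (1.04 ± 0.308) and Siglecf (0.828 ± 0.406). Mrc1 overlapped Csf1r, Folr2 overlapped Mrc1 and Lyve1, and Lyve1 overlapped Cd163, while every Csf1r library stood above every Folr2 library. Timd4, Ear2 and Chil3 overlapped one another, and so did Marco and Siglecf. The alveolar genes thus held places 1, 2, 6 and 7 in WT lungs and the last 4 places in WT hearts.

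**Figure D3:**
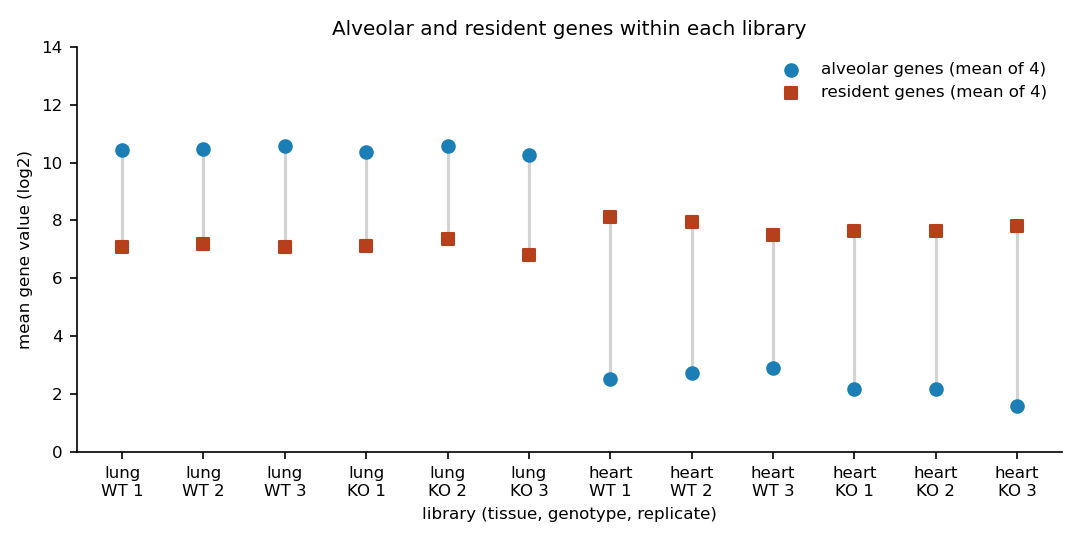
Mean log2 gene value (y axis) of the 4 alveolar genes (blue circles) and of the 4 resident genes (red squares) in each of the 12 libraries (x axis). The alveolar mean stands at 10.3 to 10.6 in lungs and 1.57 to 2.88 in hearts, and the resident mean at 6.81 to 7.35 and 7.50 to 8.10.

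Within each library, the mean of the alveolar genes minus that of the resident genes was 3.23 to 3.49 log2 units in the 6 lungs and -6.23 to -4.62 in the 6 hearts. These distances have no correction for length, so they are read only between libraries. In the hearts they rest partly on Marco and Siglecf values of 0 to 1.95, and they were not recomputed under other scalings. Without Lyve1, the distances were 4.72 to 4.89 in lungs and -5.76 to -4.22 in hearts. The 2 lung genotypes overlapped in this measure, and so did the 2 heart genotypes.

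Lists of other macrophage genes were read beside the members. For the counts called in this and the following lists, the shares over all genes tested were 29.3% higher in lung and 20.1% higher in heart in WT. In KO these shares were 28.7% and 20.9%. Of 17 other alveolar macrophage genes, 14 were called higher in lung in WT and 15 in KO, with a median difference of 4.82 in WT and 3.84 in KO. Only 10 of the 17 passed the filter for testing within the hearts. The others (Ear1, Krt79, Atp6v0d2, Olr1, F7, Il1rn and Fabp1) passed it for the comparison of organs through their lung values alone. Their calls, which the counts above include, are therefore not read as tests. Both medians were the same with genes at 0 in every heart (Ear1 in WT, F7 and Fabp1 in KO) set to a floor of 3 counts per library. Those genes lay above the medians, so this says little about the effect of a floor. Ear1, the close copy of Ear2, was at 0 in all WT hearts and differed by 8.43 in KO. Atp6v0d2, a subunit of a lysosomal proton pump, differed by 8.76 in WT and 6.78 in KO, and the keratin gene Krt79 by 7.72 and 6.06. Fabp1, a fatty acid-binding protein, read 7.10 to 7.74 in the lungs and was at 0 in 5 hearts. The coagulation factor gene F7, the fourth by size in KO, differed by 6.25 in KO and 5.47 in WT. Bhlhe41, a transcription factor of alveolar macrophages that other cells also use, was the 1 gene of the list called higher in heart, with -1.44 in WT, and was named after its values were seen.

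Of 15 other resident macrophage genes, 3 were called higher in lung and 3 higher in heart in WT, and 4 in each direction in KO, with a median of 0.01 in WT and -0.30 in KO. Over all genes, 29.3% were called higher in lung and 20.1% higher in heart in WT, and 28.7% and 20.9% in KO, so these counts set the list little apart. Fcna, a ficolin, differed by -1.83 in WT and -1.39 in KO, and F13a1, a subunit of coagulation factor XIII, by -1.81 and -1.19. Vsig4, a complement receptor of resident macrophages, differed by -3.30 in KO, and by -3.21 in WT, where its higher group mean was under 6. Vsig4 passed the filter through its heart values alone, so its KO call is not read as a test. In the other direction, Cbr2, a carbonyl reductase that airway club cells also make in quantity, was higher in lung by 6.98 in WT and 6.77 in KO, and Retnla by 2.0 and 3.10.

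General macrophage genes were split. Of 18, 14 were called higher in lung in WT and 10 in KO, and 3 were called higher in heart in each genotype (1 in WT with no scaling between libraries), with medians of 1.56 and 1.38. Lyz2, the lysozyme of myeloid cells, led with 5.42 in WT and 5.02 in KO, followed by Mpeg1, the pore-forming perforin-2, with 4.33 and 4.53, and the protease gene Ctss with 4.15 and 3.37. Tyrobp, a signalling adaptor, differed by 2.70 in WT, and Spi1, which encodes PU.1, by 2.50 in KO. The 3 genes higher in heart were C1qa, C1qb and C1qc, the chains of complement C1q, named after their values were seen, with differences of -1.71 to -1.30 in WT and -1.78 to -1.49 in KO.

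**Figure D4:**
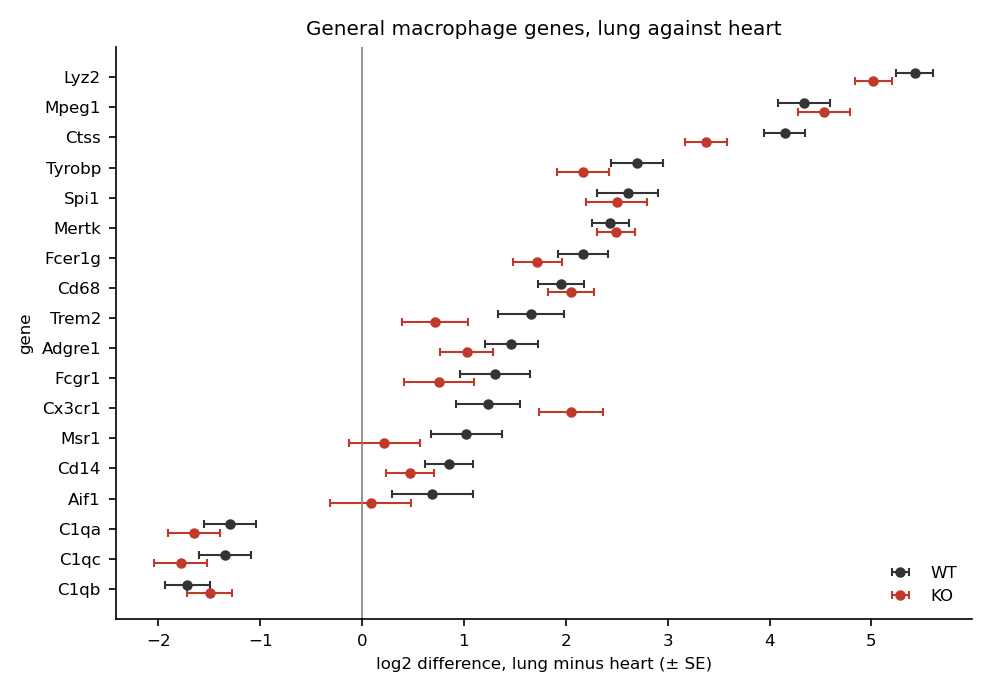
Log2 difference between lung and heart (x axis, lung minus heart, ± SE from limma) of 18 general macrophage genes in WT (black) and KO (red). C1qa, C1qb and C1qc lie below 0 in both genotypes and the other 15 genes above 0, except that in KO Aif1 lay below 0 under TMM or median of ratios scaling, and Msr1 under TMM.

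The growth factors that feed these receptors were read as well. Of 10 growth factor and receptor genes, 8 were called higher in lung in each genotype and 1 higher in heart in WT. Csf2, which encodes GM-CSF and was named after its values were seen, read 4.38 to 5.59 in the lungs, too low to be called, and was at 0 in every heart. Its receptor chains followed, with Csf2rb higher in lung by 3.20 in WT and 3.53 in KO, and Csf2ra by 2.16 and 1.87. Csf2rb2, on the same list, differed by 3.05 and 3.30. The G-CSF receptor gene Csf3r, mostly used by neutrophils, differed by 5.64 and 4.49. It read 4.70, 4.20 and 0 in WT hearts, so its WT difference rests partly on the 0 in WT heart 3. Csf1, the ligand of the Csf1r product, was the gene called higher in heart in WT and was named after its values were seen. It read 9.29, 9.43 and 8.54 in WT lungs and 10.40, 10.39 and 10.46 in WT hearts, and the difference was -1.33 (adjusted p = 0.000117, limma). In KO it read 9.83, 9.36 and 9.74 in lungs and 10.03, 10.02 and 9.68 in hearts, with a difference of -0.27 (adjusted p = 0.283). The change of that difference with genotype was 1.06 and was not called (adjusted p = 0.517).

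Other blood cells also differed between the organs. Monocyte genes were called higher in lung for 8 of 9 in each genotype, and 5 of the 9 passed the filter for testing within the hearts. The calls of the others (Ly6c2, Plac8, F10 and Treml4) rest on a filter passed through lung values alone and are not read as tests. Neutrophil genes had summed levels of 10.6 to 11.6 in lungs and 3.70 to 5.92 in hearts. Summed dendritic cell genes stood at 10.1 to 10.5 in lungs and 8.70 to 9.10 in hearts, and lymphocyte genes at 9.82 to 10.7 and 5.22 to 5.85. The genes of the eosinophil list stood at 6.86 to 7.83 and 3.70 to 5.59. Red blood cell genes (12.9 to 17.2 in lungs, 12.8 to 15.8 in hearts) overlapped between the organs, and adipocyte genes (10.2 to 12.5 and 12.5 to 13.6) overlapped by little.

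The second comparison set KO against WT in the lung. None of the 10 genes was called by limma or by limma-voom, where 11 of 16551 genes tested were (0.0665%). Siglecf had the smallest p, with a difference of -0.62 (KO minus WT, SE 0.186, 95% interval -1.04 to -0.19, unadjusted p = 0.00939) that did not pass adjustment (adjusted p = 0.806, limma). It was lower in 3 of 3 KO lungs than in any WT lung. With the spread estimated from all 12 libraries, its adjusted p was 0.829. Leaving out single lungs moved the difference between -0.69 and -0.50, and with no scaling between libraries it was -0.36. The 3 genes of the eosinophil list tested in lung (Ccr3, Alox15 and Siglece) were all higher in KO on average (median 0.59, none called), except Siglece without KO lung 1. Of those under the filter, Prg2 averaged 2.45 in WT and 1.93 in KO lungs, Il5ra 3.27 and 3.83, and Epx was at 0.

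Siglecf was the only 1 of the 10 members with an unadjusted p under 0.05, a level that 5.93% of all genes reached. The groups did not overlap for 4 of the 10 members, which was the case for 12.8% of all genes. These were Siglecf, Marco, Timd4 and Cd163, of which Siglecf and Timd4 were lower and Marco and Cd163 higher in KO, so each kind of gene had 1 member on either side. An exact permutation test of 3 against 3 libraries cannot go below 0.1, which is the value of all 4.

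Marco differed by 0.63 (SE 0.335, adjusted p = 0.839, limma), and the gap between the groups was under 0.02. Without WT lung 3 the difference was 0.24. Cd163 differed by 0.44 (SE 0.224, adjusted p = 0.837), and by 0.28 without KO lung 2. Timd4 differed by -0.57 (SE 0.355, adjusted p = 0.841) at a level of 10.7 to 31.5 estimated counts per lung. Timd4 lies on the chromosome of the targeted gene, starting 663 kb beyond the end of Adam19.

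The other 6 members lay between -0.21 and 0.13 in the lung: Ear2 at -0.21, Chil3 at -0.19, Folr2 at -0.12, Csf1r at -0.03, Mrc1 at 0.02 and Lyve1 at 0.13. The 95% intervals were narrowest for Mrc1 (-0.30 to 0.34) and Csf1r (-0.39 to 0.34). Chil3 had a wider interval (-0.78 to 0.40), and its difference was 0.11 without WT lung 3. The median over the 10 genes was -0.07, against 0.01 over all genes.

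**Figure D5:**
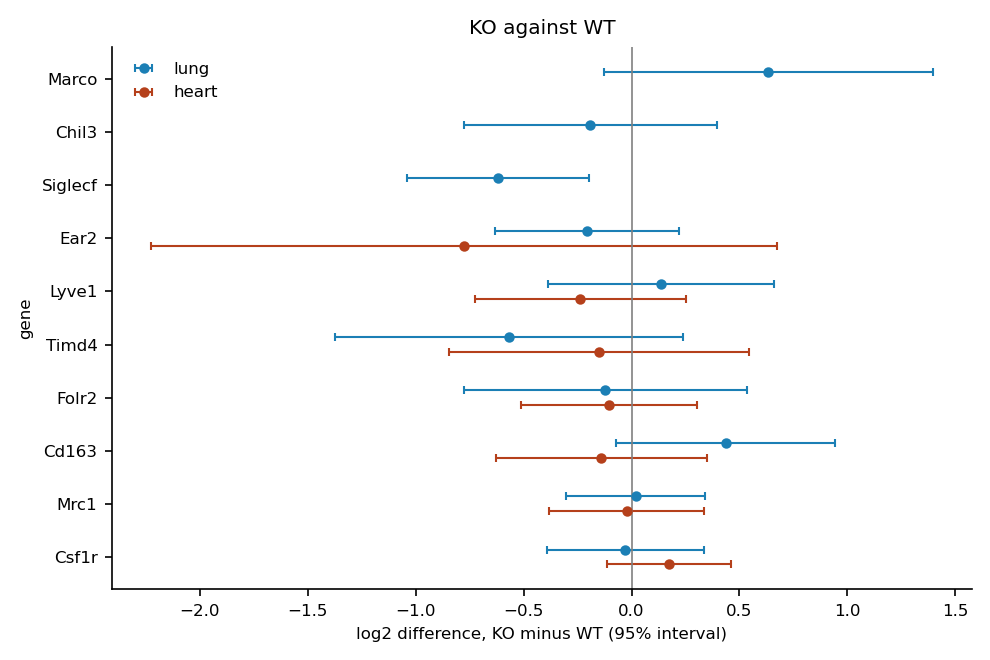
Log2 difference between KO and WT (x axis, KO minus WT) of the 10 genes in lung (blue) and heart (red), with 95% intervals from limma. The interval excludes 0 for Siglecf in lung alone, before adjustment, and Marco, Chil3 and Siglecf were under the filter on low values in heart.

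The same comparison in the heart could be made for 7 of the 10 genes. Marco, Chil3 and Siglecf did not reach a scaled estimated count of 10 in at least 3 hearts and were not tested. None of the 7 was called by limma or by limma-voom (13 of 15303 genes, 0.085%), none had an unadjusted p under 0.05 (7.46% of genes), and none had groups that did not overlap (13% of genes). Ear2 differed by -0.78 (SE 0.639, adjusted p = 0.785, limma) on 2.87 to 15.54 estimated counts per heart, and by -1.27 without WT heart 3 and -0.48 without WT heart 2.

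The resident genes lay close together in the heart, with Lyve1 at -0.24 (95% interval -0.73 to 0.25), Timd4 at -0.15, Cd163 at -0.14 and Folr2 at -0.11 (-0.51 to 0.30). All 4 were negative, with adjusted p-values of 0.806 to 0.920 (limma), and all 4 were positive (0.35 to 0.48) with no scaling between libraries, which moved the median of all genes by 0.58. Mrc1 stood at -0.02 and Csf1r at 0.17 (95% interval -0.11 to 0.46).

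The test of whether the KO difference itself differed between lung and heart called none of the 10 genes, and 1 of 17666 genes in all (0.00566%). Among the 7 members that were tested in both organs, Cd163 changed by 0.58 (SE 0.321, adjusted p = 0.669, limma), Ear2 by 0.57, Lyve1 by 0.37, Mrc1 by 0.041, Folr2 by -0.015, Csf1r by -0.20 and Timd4 by -0.42. None of these 7 had an unadjusted p under 0.05, which 7.88% of all genes had. Marco, Chil3 and Siglecf passed the filter through their lung values alone, so no test is read for them. Their fitted changes were 1.5 for Marco, 0.25 for Chil3 and 0.26 for Siglecf. The heart part of the Marco value rests on at most 2.97 estimated counts per library, and with a pseudocount of 8 in place of 1 its change was 0.82.

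No gene of the other lists was called between KO and WT in either organ with limma, except that with no scaling between libraries 1 other resident gene, 1 lung epithelium gene and 1 heart muscle gene were called higher in KO hearts. Of the other alveolar genes, 1 of 17 tested in lung and 3 of 10 tested in heart had an unadjusted p under 0.05 (limma). Of all genes, 5.93% in lung and 7.46% in heart reached that level. The median over the 17 genes tested in lung was -0.08, and over the 10 tested in heart 0.46, with 6 of the 10 above 0. In the same hearts, lung epithelium genes had a median of 0.49 with 6 of 6 tested (Hopx included) above 0, of which 3 fell below 0 without WT heart 2. Adipocyte genes had a median of 0.37 with 5 of 5 above 0, of which 4 fell below 0 without WT heart 3 and also without KO heart 1. In lung these medians were -0.11 (3 of 8 above 0) and 0.51 (5 of 5, of which 2 fell below 0 without WT lung 2 and also without KO lung 2). Their part in the alveolar medians was not tested. Of the 15 other resident genes, 14 were tested in each organ and 1 of these had an unadjusted p under 0.05 (limma) in each. The medians were 0.05 over 14 genes in lung and 0.03 over 14 in heart. The 18 general macrophage genes had medians of -0.12 and 0.21.

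The genes most like 3 of the members over the 12 libraries were taken by Pearson correlation of the deposited values among 17666 genes, as a description. For Marco they were Cyp2s1 (0.998) and A930007A09Rik (0.996), and for Folr2 Oxnad1 (0.997), Echs1 (0.996) and Pgk1 (0.996). For Csf1r they were Slc15a3 (0.987), Rtkn (0.986) and Ttc9 (0.985). All points share the split into 6 lungs and 6 hearts. Among the members, Siglecf (0.983) was closest to Marco, and Cd163 (0.940) to Folr2.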

How the data were processed

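Total RNA from whole lung and heart was sequenced strand-specifically. Per the study's methods and the labels, the authors trimmed reads (cutadapt), estimated transcript abundances with Salmon against GENCODE transcripts of mm39, and used limma. The deposited values are log2 of abundance + 1, by gene and by transcript. Gene values equal log2 estimated counts shifted by a constant per library (-0.63 to 0.80, within 0.01 for at least 95.7% of checked genes with 1 listed transcript in every library). The step from transcripts to genes is not given in the sources used here.

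All genes with a value of at least log2(1+10) in at least 3 libraries were fitted with limma 3.58.1 in R 4.3.3 (lmFit, eBayes with trend) on the deposited log2 values, per tissue for KO against WT and on all 12 libraries with 4 group means for lung against heart, with Benjamini-Hochberg adjustment. A call needed an adjusted p under 0.05, a 1.5-fold change and 1 group whose mean reached 6. The fit was tested on simulated data. Fold changes on this scale understate changes of low genes. Counting intervals used estimated counts recovered from the deposited values, and sequencing precision is limited to counting error there.

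The members and lists were chosen with earlier results of these data known. All members were named in every comparison. A general macrophage gene and a gene with a pattern like that of Marco are not reported here. From each macrophage list, up to 4 called genes with the largest tissue difference in each genotype were named, and genes outside this rule are marked as named after their values were seen or belong to a marker list given whole. Lung and heart of a mouse are paired through its identifier in the titles. The correlation of their deviations was -0.07 to 0.14, and the mouse block was an alternative. No 2 libraries were duplicates. Coordinates are GRCm39 (GENCODE vM39 matched 99.0% of genes) except promoter windows (RefSeq, GRCm38.p6). Alternatives covered scaling, pseudocount, filter, trend, limma-voom, summed transcripts, the samples in the fit, the mouse block and leaving out each library.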

Additional observations from a re-analysis of the deposited data

How the results depend on the processing

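Of 625 member differences recomputed under the alternatives, 597 kept their direction and their side of the threshold, 4 lost a call (Csf1r between KO lung and heart, given above) and 24 changed sign, none of them called. For the change of the KO difference between organs, these cover Marco and Cd163 only. For KO against WT in heart they leave out Marco, Chil3 and Siglecf. The tissue calls of the other members held under every alternative in which they were tested. Marco, Chil3, Siglecf and Ear2 were not tested under the filter in every library, because of their low heart values. As above, the calls of Marco, Chil3 and Siglecf are not read as tests. The mouse replicate block changed no call of a member, with 8681 genes called between the organs in WT (8726 without it), 8719 in KO (8761) and 2 for the change of the KO difference between organs (1 without it). Counts of genes called moved as follows. With no scaling, 60 genes were called in lung (11 as deposited), 166 in heart (13) and 4 for the change between organs. A filter in every library left 1 and 7. The change between organs gave 2 under TMM and 4 with the larger pseudocount of 8. Leaving out single libraries gave 10 to 14 in lung, 10 to 21 in heart (21 without KO heart 2) and 0 to 5 for the change between organs (5 without WT heart 3, and 0 by limma in 5 of the 12 fits, where 1040 to 1896 genes had an unadjusted p under 0.05). With no scaling, 5517 genes were called higher and 2034 lower in WT lung than heart (5179 and 3547 as deposited), and TMM gave 4121 and 4482 in KO (5076 and 3685). Sign changes, KO minus WT: in lung with no scaling Chil3 0.072, Ear2 0.057, Folr2 0.14 and Csf1r 0.23, and from summed transcripts Mrc1 -0.039 and Csf1r 0.044. In heart Mrc1 was 0.049 under TMM, and with no scaling Lyve1 0.35, Timd4 0.42, Folr2 0.48, Cd163 0.45 and Mrc1 0.56. Leaving out single libraries, lung ranges were Chil3 -0.37 to 0.11, Lyve1 -0.0011 to 0.38, Folr2 -0.28 to 0.034, Mrc1 -0.035 to 0.080 and Csf1r -0.16 to 0.065, and heart ranges Timd4 -0.39 to 0.033, Cd163 -0.38 to 0.0092 and Mrc1 -0.18 to 0.069. The cause of these changes was not tested. Estimated counts under about 3 per heart limit what can be said of Marco and Siglecf there.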
